A study of Mus musculus with 24 samples.

Results

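A set of 7 genes of the mouse 2-cell embryo was followed through the RNA-seq count tables of this study: Zscan4c, Zscan4d, Zscan4f, Tcstv1, Tcstv3, Zfp352 and Tmem92. They were chosen by name, with earlier results of these data known, and all 7 were found by gene symbol among the 51912 genes of each table. The study asked which transcription factor motifs protect or remove DNA methylation, and it sequenced RNA of 3 cell groups with 3 libraries each, ESCs, NPs and TET TKO ESCs. ESCs were wild-type embryonic stem cells (labelled C57BL/6 X 129S5), and NPs were neural progenitors made from wild-type ESCs with the same strain label, by growth as aggregates and treatment with retinoic acid, taken at day 8. TET TKO ESCs carried knockouts of all 3 Tet genes, which encode the dioxygenases that oxidise methylated cytosine. They are another line with another strain label (C57BL/6 X 129/sv) and were sequenced more deeply, so genotype, line, strain and depth cannot be told apart in this comparison. The study's methods call the RNA-seq replicates biological, and neither they nor the labels say whether each came from its own culture, so p-values measure the spread between these libraries.

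In mouse embryos, these genes are switched on when the embryo's own genome is first activated, at the 2-cell stage, and are turned off soon after. In ESC cultures, a small and changing minority of cells enters a 2-cell-like state in which the same genes are active together, along with MERVL retroviral elements. The transcription factor DUX switches the programme on, DPPA2 and DPPA4 act upstream of it, and several chromatin repressors hold it down. ZSCAN4 proteins carry a SCAN domain and zinc fingers and are known for their part in telomere maintenance. In a bulk library, fewer cells in this state and less RNA per such cell cannot be told apart.

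The 7 genes lie at 4 places of the genome (GRCm38). The 3 Zscan4 members belong to a cluster of 9 Zscan4 genes and pseudogenes on chromosome 7, with Zscan4c at chr7:11005745-11010547 on the plus strand, Zscan4d at chr7:11161374-11166159 on the minus strand and Zscan4f at chr7:11397915-11402318 on the plus strand. Tcstv1 (chr13:119893388-119894785, minus strand) and Tcstv3 (chr13:120317567-120318076, plus strand) are a pair of related genes of unsettled function on chromosome 13. Zfp352, a zinc finger gene, lies at chr4:90218820-90225702 on the plus strand, and Tmem92, which encodes a transmembrane protein, lies at chr11:94777217-94782703 on the minus strand. None of the 7 shares an exon with another annotated gene.

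The sequence of these copies sets what the counts can show, because the authors counted reads that map to 1 place. The coding sequences of Zscan4c and Zscan4f differ at 6 of 1518 bases, and each differs from Zscan4d at 35. The first 120 coding bases make this visible and are given 5′ to 3′ from the GRCm38 genome, with capitals where a copy differs from Zscan4c.
Zscan4c, chr7:11006556-11006675 (+): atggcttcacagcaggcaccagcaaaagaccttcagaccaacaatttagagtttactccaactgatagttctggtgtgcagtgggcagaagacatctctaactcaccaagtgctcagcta
Zscan4d, chr7:11165229-11165348 (-): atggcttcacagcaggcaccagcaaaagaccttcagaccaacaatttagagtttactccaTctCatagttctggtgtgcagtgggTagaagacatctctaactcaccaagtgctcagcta
Zscan4f, chr7:11398749-11398868 (+): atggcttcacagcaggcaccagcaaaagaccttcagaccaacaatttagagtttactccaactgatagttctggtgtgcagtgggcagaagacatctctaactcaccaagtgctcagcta
Zscan4c and Zscan4f are the same over this whole stretch, and Zscan4d differs at 3 positions. The same stretch of the Tcstv pair is shown with a capital where Tcstv3 differs from Tcstv1.
Tcstv1, chr13:119893975-119894094 (-): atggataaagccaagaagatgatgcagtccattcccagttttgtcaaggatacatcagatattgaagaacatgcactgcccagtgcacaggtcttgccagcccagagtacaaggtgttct
Tcstv3, chr13:120317567-120317686 (+): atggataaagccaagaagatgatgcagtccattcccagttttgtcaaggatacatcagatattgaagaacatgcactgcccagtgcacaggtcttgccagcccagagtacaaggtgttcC
They differ at the last of these 120 bases, and their exons are 94.7% identical over the 510 bases that align.

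Unique sequence was measured as the share of 50-base stretches inside a gene's exons that occur once in the genome, since the methods give reads of 50 bases. Zfp352 and Tmem92 were largely unique, at 91.0% and 77.5% of these stretches. Tcstv3 followed at 67.2%, Tcstv1 at 58.9% and Zscan4d at 48.7%. For Zscan4c the share was 15.4% and for Zscan4f 2.9%. Most reads from inside the exons of Zscan4c, and nearly all from those of Zscan4f, would thus match a further copy exactly. With 100-base stretches these last 2 shares were 28.8% and 6.8%. Stretches that cross a splice junction were not counted. The counts of the Zscan4 copies therefore state how many reads could be placed, and copies are compared with each other below only with this limit.

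**Figure D1:**
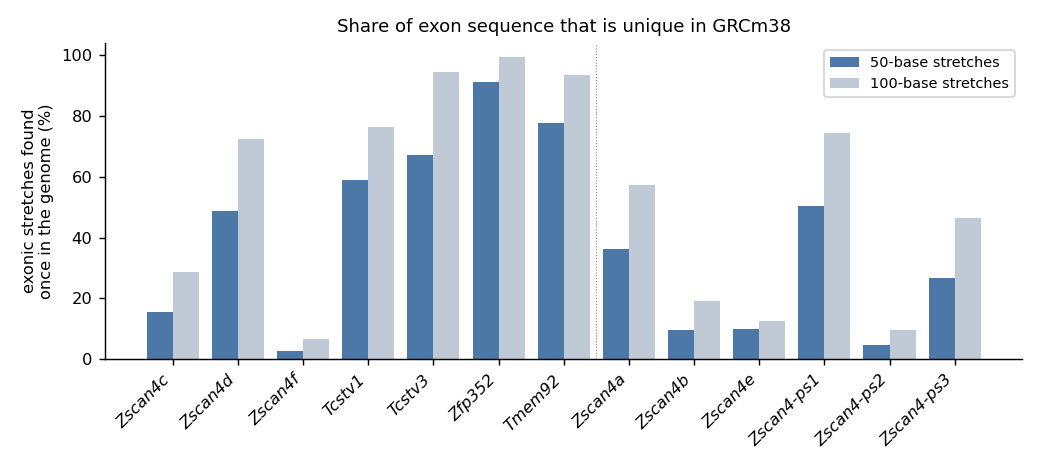
Bars give the percent of exonic stretches of 50 bases (dark) and 100 bases (light) found once in the GRCm38 genome, for the 7 genes left of the dotted line and the other 6 genes of the Zscan4 cluster right of it. At 50 bases, Zfp352 is highest at 91.0% and Zscan4f lowest at 2.9%.

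Promoters were read from the RefSeq table (GRCm38.p6), which held windows for 4 of the 7 genes, Zscan4c, Zscan4d, Zscan4f and Zfp352. The 250 bases upstream of the start are shown because TET enzymes act on methylated CpGs and these genes varied together across libraries, with each CpG in capitals.
Zscan4c, chr7:11005495-11005744 (+): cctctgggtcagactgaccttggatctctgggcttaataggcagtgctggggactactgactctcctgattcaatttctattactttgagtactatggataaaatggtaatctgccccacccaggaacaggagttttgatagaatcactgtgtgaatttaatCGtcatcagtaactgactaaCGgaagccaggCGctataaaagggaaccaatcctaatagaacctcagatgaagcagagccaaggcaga
Zscan4d, chr7:11166149-11166398 (-): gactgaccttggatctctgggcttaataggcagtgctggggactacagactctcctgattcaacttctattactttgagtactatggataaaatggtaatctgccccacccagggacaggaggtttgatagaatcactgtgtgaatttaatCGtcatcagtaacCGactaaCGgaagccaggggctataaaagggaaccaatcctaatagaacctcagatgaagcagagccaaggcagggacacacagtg
Zscan4f, chr7:11397665-11397914 (+): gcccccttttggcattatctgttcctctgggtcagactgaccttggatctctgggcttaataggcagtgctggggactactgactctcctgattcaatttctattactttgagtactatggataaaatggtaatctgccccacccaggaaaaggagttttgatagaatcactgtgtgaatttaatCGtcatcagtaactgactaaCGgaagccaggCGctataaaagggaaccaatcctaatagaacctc
Zfp352, chr4:90218570-90218819 (+): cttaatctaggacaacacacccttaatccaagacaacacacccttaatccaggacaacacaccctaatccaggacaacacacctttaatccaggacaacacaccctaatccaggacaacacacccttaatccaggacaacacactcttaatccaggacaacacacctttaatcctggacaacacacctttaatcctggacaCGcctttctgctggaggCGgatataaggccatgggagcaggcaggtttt
The upstream stretches of Zscan4c and Zscan4f were 99.6% identical over 227 aligned bases, and Zscan4d shared 97.1% and 96.8% with them. All 4 held fewer CpGs than the median window, and only Zfp352 lay under the lower quartile. The windows of 300 bases held 4 CpGs for Zscan4c, 3 for Zscan4d, 3 for Zscan4f and 2 for Zfp352, against a median of 7 (quartiles 3 and 20) over 32851 windows of the table. The letters ATTCAATCA, a core of the motif of DUX, were in none of the 4 windows on either strand, and in 0.183% of all windows, which says nothing about binding elsewhere. The letters TATAAA, on the gene's strand and searched after the windows had been read, were upstream of all 3 Zscan4 members and not of Zfp352, and in 7.59% of all upstream stretches.

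The knocked-out genes and the labelled cell types were checked before the comparisons. Tet1 had 65.1 ± 3.92 RPKM in ESCs and 13.5 ± 2.38 in TET TKO ESCs, and Tet2 had 19.0 ± 2.47 and 2.48 ± 0.197 (SD, n = 3; RPKM is the read count relative to gene length and library size, with library sizes scaled by TMM). Both were called lower, while Tet3 was under 1 RPKM in both groups, and whole-gene counts do not show whether a transcript is intact. The 10 pluripotency markers summed to 2941 to 3047 RPKM in ESCs, 2802 to 3521 in TET TKO ESCs and 59.5 to 82.1 in NPs, and the 10 neural markers to 6.41 to 8.38, 9.68 to 22.7 and 168 to 290. Depth was 20570050 to 23976914 counts in ESCs, 20519702 to 22132988 in NPs and 80704741 to 93210102 in TET TKO ESCs.

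The 2-cell genes were low but well counted in ESCs, and ESC 3 stood apart from the other libraries in every one of them. Zscan4d, the highest in placed reads, had 1102, 1074 and 322 reads in ESC 1, 2 and 3, Zscan4c had 513, 496 and 159, and Zscan4f had 334, 280 and 123. Tmem92 had 494, 479 and 212 reads, Zfp352 65, 64 and 35, Tcstv3 54, 48 and 13, and Tcstv1 18, 28 and 10. Each gene was thus lower in ESC 3 than in the other libraries, although ESC 3 was the deepest of the group. Per length, the mean level was 16.7 ± 9.52 RPKM for Zscan4d, 8.19 ± 3.69 for Tmem92, 7.80 ± 4.31 for Zscan4c, 5.70 ± 2.82 for Zscan4f, 3.44 ± 2.11 for Tcstv3, 1.09 ± 0.399 for Zfp352 and 0.604 ± 0.313 for Tcstv1 (SD, n = 3). The order was the same in all 3 ESC libraries, but the means of Tmem92, Zscan4c and Zscan4f lie within 1 SD of each other. For the Zscan4 copies it is an order of placed reads and does not rank their RNA. Their unique 50-base shares differ in the same order, at 48.7% for Zscan4d, 15.4% for Zscan4c and 2.9% for Zscan4f. Pou5f1, which encodes the pluripotency factor OCT4, was at 388, 415 and 376 RPKM.

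**Figure D2:**
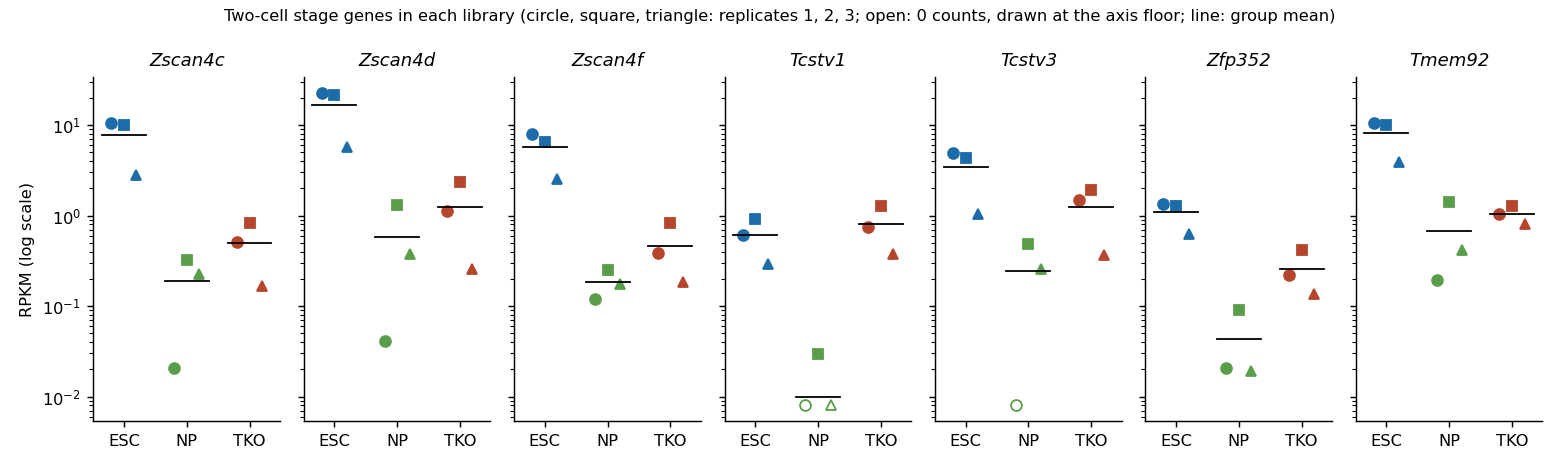
Each panel shows 1 gene, with its RPKM on a log axis in the 3 libraries of ESCs, NPs and TET TKO ESCs (TKO); markers give replicates 1, 2 and 3, open markers libraries with 0 counts, and lines the group means. In every panel ESC 3 is the lowest ESC library, all NP libraries lie under all ESC libraries, and the TET TKO and ESC libraries overlap for Tcstv1 and Tcstv3.

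In TET TKO ESCs, the 3 Zscan4 members, Tmem92 and Zfp352 were lower than in ESCs by 4.24-fold to 15.7-fold, with every library under every ESC library, while Tcstv1 and Tcstv3 overlapped. None of the 7 passed the study's limits, an adjusted p under 0.001 and a 3-fold change by edgeR's quasi-likelihood test, which called 1.21% of the 13939 tested genes lower and 1.1% higher. The 5 genes had an unadjusted p under 0.05, as had 46.5% of tested genes in either direction, and these 5 were also lower with an adjusted p under 0.05 and a change of at least 2-fold, a looser limit that 6.74% of tested genes passed downwards. DESeq2 at the study's limits called 5 of the 7 lower, against 3.63% of genes, and edgeR without the filter on low genes called 4, against 2.04%. Libraries lower than all ESC libraries, as for 5 of the 7, were seen for 19.6% of tested genes. Zscan4c, Zscan4f and Zfp352 passed the filter of 1 RPKM through ESC libraries alone, so that they entered the test as genes high in ESCs. Tcstv1 passed it through TET TKO 2 alone, at 1.28 RPKM, and so entered as a gene high in that library.

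Among these genes, Zscan4c had 89, 135 and 33 reads in TET TKO 1, 2 and 3, or 0.502 ± 0.331 RPKM (SD, n = 3). Its log2 fold change was -3.97 ± 0.69 (SE), 15.7-fold lower, with an adjusted p of 0.0042 in edgeR. Although the TET TKO libraries were the deepest, they held fewer Zscan4c reads than any ESC library. Zscan4d had 195, 386 and 50 reads, 1.25 ± 1.07 RPKM, a log2 fold change of -3.76 ± 0.81 and an adjusted p of 0.0105 (edgeR). Zscan4f had 58, 115 and 31 reads, 0.463 ± 0.327 RPKM, a log2 fold change of -3.64 ± 0.63 and an adjusted p of 0.0043 (edgeR). In all 3 copies TET TKO 2 was highest and TET TKO 3 lowest. Without TET TKO 2 the difference was 24.6-fold for Zscan4d and 20.2-fold for Zscan4f, against 13.5-fold and 12.4-fold with it. Without TET TKO 3 it was smaller, at 9.67-fold for Zscan4d and 9.53-fold for Zscan4f.

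Tmem92 had the smallest spread of the 7 relative to its mean, with 175, 197 and 153 reads or 1.04 ± 0.225 RPKM in TET TKO ESCs. It was 7.94-fold lower (log2 fold change -2.99 ± 0.40, adjusted p = 0.0015 in edgeR), just outside the limit. Zfp352 had 39, 67 and 27 reads or 0.257 ± 0.141 RPKM, and was 4.24-fold lower (-2.08 ± 0.49, adjusted p = 0.014 in edgeR). Of their 50-base exon stretches, 77.5% (Tmem92) and 91.0% (Zfp352) were unique, and the part of reads shared with other places was not tested.

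The Tcstv pair did not follow. Tcstv1 had 80, 128 and 45 reads in TET TKO ESCs, 0.799 ± 0.457 RPKM (SD, n = 3) beside 0.604 ± 0.313 in ESCs, and its log2 fold change of 0.40 ± 0.56 gave an adjusted p of 0.61 in edgeR. Tcstv3 had 59, 69 and 16 reads, 1.25 ± 0.795 RPKM beside 3.44 ± 2.11 in ESCs, with a log2 fold change of -1.46 ± 0.71 and an adjusted p of 0.15 in edgeR. A lower level of Tcstv3 is not shown, and for Tcstv1 the difference was within 1 SE. The ratio of Tcstv1 to Tcstv3 reads was 0.333, 0.583 and 0.769 in the ESC libraries and 1.36, 1.86 and 2.81 in the TET TKO libraries, a 3.62-fold difference without overlap. The ratio was formed after the values of both genes had been seen, and no test is given. The strain labels differ between these groups, and the part of sequence differences between strains in the placing of reads was not tested.

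In NPs all 7 genes were lower, and no NP library reached an ESC library for any of them. Of the 6 genes tested, edgeR called 3 lower, Zscan4c, Zscan4f and Zfp352, against 9.98% of 15197 tested genes called lower and 12.4% higher. All 6 had an unadjusted p under 0.05, as had 67.4% of tested genes in either direction. With an adjusted p under 0.05 and a change of at least 2-fold all 6 were lower, against 19.1%. DESeq2 called all 6 at the study's limits, against 12%, and edgeR without the filter called all 7, against 8.18%. Libraries below all ESC libraries were seen for 35.6% of tested genes. Of the 6, all but Zscan4d and Tmem92 passed the filter through ESC libraries alone.

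NP 2 held most of the reads that remained. Zscan4c had 1, 18 and 12 reads in NP 1, 2 and 3 and was 39.6-fold lower than in ESCs (log2 fold change -5.31 ± 0.74, adjusted p = 0.00031 in edgeR). Zscan4f had 5, 12 and 8 reads and was 30.6-fold lower (-4.93 ± 0.53, adjusted p = 7.4e-05 in edgeR). Zfp352 had 1, 5 and 1 reads and was 23.2-fold lower (-4.54 ± 0.61, adjusted p = 0.00026 in edgeR). These 3 were called, but Zscan4c and Zfp352 lost the call without ESC 1, ESC 2, NP 1 or NP 3. Without NP 2 Zscan4c was 60.0-fold and Zfp352 48.8-fold lower. Zscan4d, with 2, 72 and 20 reads, was 28.6-fold lower (-4.84 ± 0.86, adjusted p = 0.0012 in edgeR). Tmem92 had 9, 76 and 21 reads and was 11.98-fold lower (-3.58 ± 0.67, adjusted p = 0.0016 in edgeR). Both missed the limit with NP 2 in the fit and passed it without NP 2, where Zscan4d was 76.6-fold and Tmem92 26.5-fold lower.

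The Tcstv pair, which overlapped between TET TKO ESCs and ESCs, was near zero in NPs. Tcstv3 had 0, 6 and 3 reads and was 13.01-fold lower (-3.70 ± 0.85, adjusted p = 0.0050 in edgeR), or 24.0-fold without NP 2. Tcstv1 stayed under 1 RPKM in all 6 libraries and was not tested. Its counts were 1 read in NP 2 and 0 in NP 1 and NP 3, against 56 in the ESC libraries, which is 1.83% of the ESC level per library size with an exact 95% interval of 0.0456% to 10.6% that covers counting error only.

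NP 2 also held more transcripts of pluripotency genes. For the 3 genes with a mean of at least 10 reads over NPs, NP 2 exceeded the mean of NP 1 and NP 3 by 2.62 times for Zscan4c, 6.19 times for Zscan4d and 4.71 times for Tmem92. Pou5f1 exceeded it by 2.60 times, at 1.85 RPKM against 0.940 and 0.480, and the median over the 10 pluripotency markers was 2.58 times. Of all such genes, 6.499% were 2 times higher or more in NP 2. The part of remaining undifferentiated cells in the 2-cell reads of NPs was not tested.

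**Figure D3:**
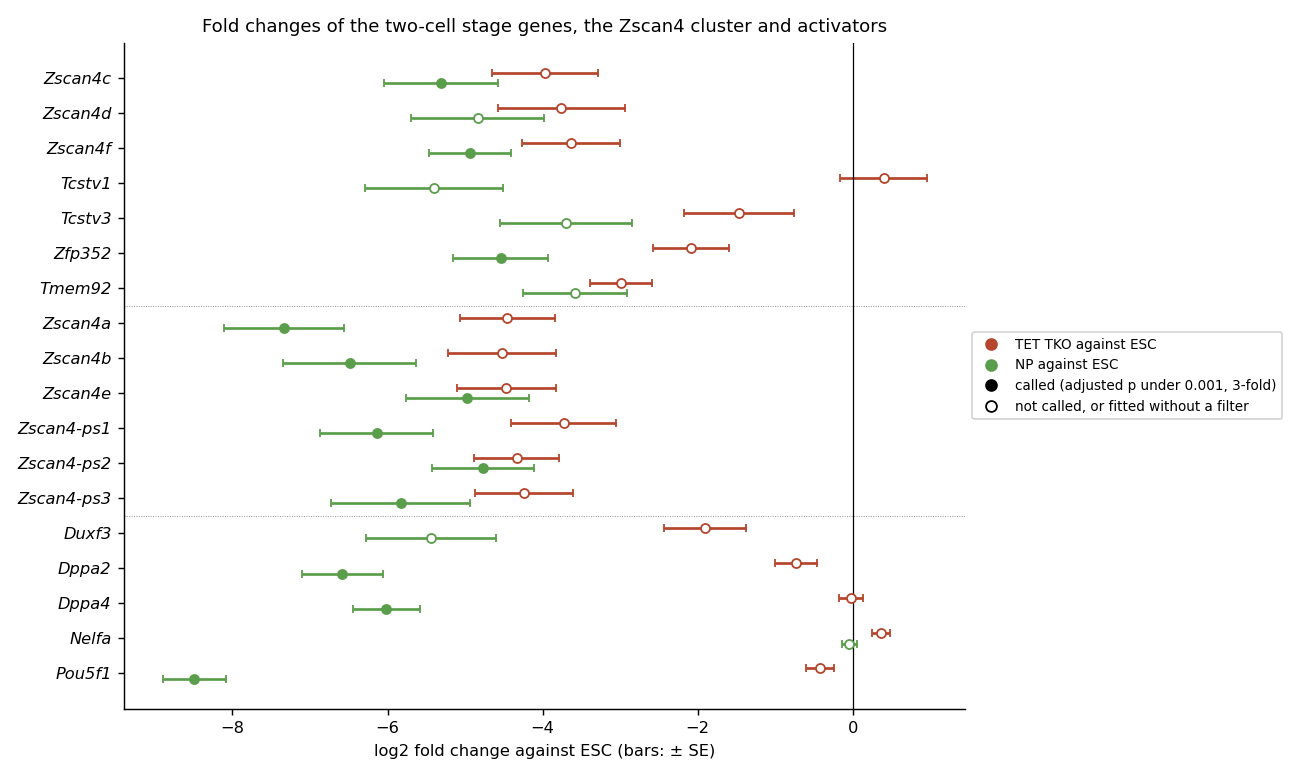
Points give the log2 fold change against ESCs with its SE for TET TKO ESCs (red) and NPs (green); filled points were called at the study's limits. The upper block holds the 7 genes, the middle block the other Zscan4 copies and the lower block activators and Pou5f1. Tcstv1 and Duxf3 in NPs and Duxf3 in TET TKO ESCs come from the fit without the filter; Tcstv1 is the gene of the upper block near 0 in TET TKO ESCs.

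With the reads of the copies summed, the Zscan4 cluster was again lower in TET TKO ESCs and the Tcstv pair was again without a detectable difference. The 9 Zscan4 genes and pseudogenes together had 4450, 4454 and 1569 reads in ESCs, 802, 1123 and 262 in TET TKO ESCs and 11, 181 and 57 in NPs. Their sum was 16.5-fold lower in TET TKO ESCs (log2 fold change -4.04, adjusted p = 0.0036 in edgeR) and 45.4-fold lower in NPs (-5.50, adjusted p = 0.00038). Tcstv1 and Tcstv3 summed had a log2 fold change of -0.57 in TET TKO ESCs (adjusted p = 0.49) and -4.13 in NPs (adjusted p = 0.0021). Of the 9 single Zscan4 rows, 0 were called in TET TKO ESCs by edgeR, with log2 fold changes from -4.52 for Zscan4b to -3.64 for Zscan4f. All 9 had an unadjusted p under 0.05, against 46.5% of tested genes in either direction. Without the filter 9 were called lower, against 2.04% of genes. In NPs all of the 9 but Zscan4d passed the filter through ESC libraries alone, and the copies share sequence. Without the filter 9 were called lower there, against 8.18% of genes. With the filter 8 of 9 were called lower in NPs, against 9.98% of tested genes. They were led by Zscan4a at -7.33 (161-fold), Zscan4b at -6.49, the pseudogene Zscan4-ps1 at -6.14 and Zscan4-ps3 at -5.83.

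The shares of the placed copies overlapped between ESC and TET TKO libraries for some copies and not for others. Zscan4d took 24.8%, 24.1% and 20.5% of the cluster's reads in ESCs and 24.3%, 34.4% and 19.1% in TET TKO ESCs. Zscan4c took 10.1% to 11.5% in ESCs and 11.1% to 12.6% in TET TKO ESCs, and Zscan4f 6.3% to 7.8% against 7.2% to 11.8%. The ranges of these 3 copies overlapped. Those of Zscan4a (21.8% to 24.4% in ESCs, 14.8% to 19.5% in TET TKO ESCs), Zscan4b (2.7% to 3.0% and 1.5% to 2.0%) and Zscan4e (5.5% to 6.9% and 3.6% to 4.6%) did not. The ranges of the pseudogenes overlapped. The shares of a library sum to the whole, so those of single copies depend on each other, and no test is given. How often such ranges fail to overlap among other genes was not counted. The strain labels differ between these groups, and the part of sequence differences between strains in the placing of reads was not tested. NP 1 has 11 cluster reads in all, too few for shares.

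Other genes of the 2-cell programme, from a list of 53 that includes Zscan4a, Zscan4b and Zscan4e, had negative medians in both comparisons. In TET TKO ESCs 22 were tested, and their median log2 fold change was -2.74 beside 0.12 over all tested genes. Of these 22, edgeR called 1 lower and 0 higher, against 1.21% and 1.1% of tested genes. That gene was Gm21761, with 243, 254 and 106 reads in ESCs and 40, 41 and 23 in TET TKO ESCs (log2 fold change -4.34 ± 0.49, adjusted p = 0.00083). All 22 had an unadjusted p under 0.05, against 46.5% of tested genes in either direction. Of them 17 lay under every ESC library, against 19.6%, but genes pass the filter by being high in ESCs. Without it the median was -1.93 over 46 genes, beside 0.12 over all genes, with 18 called lower and 2 higher, against 2.04% and 1.7% of all genes. The 2 were Duxbl1 (9.49 ± 0.99) and AA792892 (8.08 ± 1.39), each at 0 in ESCs, so that their fitted values depend on the prior count. In NPs 25 were tested with a median of -4.48 beside 0.04. Without the filter it was -4.11 over 41 genes beside -0.05, with 30 called lower and 1 higher, against 8.18% and 8.51% of all genes. With the filter 15 were called lower, against 9.98% of tested genes. Among them were Abcb5, which encodes a transporter (-6.19 ± 0.67), and Gm5662 (-5.83 ± 0.78). Arg2, the arginase of mitochondria, was called higher (2.79 ± 0.39), with 4, 8 and 9 reads in ESCs and 38, 60 and 52 in NPs.

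Genes on the list that are related in sequence to the Tcstv pair were also counted. AF067061, whose exons are 92.4% identical to Tcstv1 over the aligned part, had 59, 67 and 21 reads in ESCs and 28, 39 and 17 in TET TKO ESCs (-2.60 ± 0.57, adjusted p = 0.011 in edgeR). BC147527, at 88.9%, had 36, 29 and 17 against 31, 49 and 8 (-1.66 ± 0.67, adjusted p = 0.090). They were named for this relation after their values had been seen. Of the 53 genes, 5 had 0 reads in all ESC and NP libraries and some in TET TKO ESCs, led by Duxbl1 with 118, 98 and 209 and AA792892 with 46, 87 and 18. Of the exonic 50-base stretches of Duxbl1 and AA792892, 7.1% and 3.4% were unique. Tdpoz2 had 1, 5 and 10 reads, and C87499 and BC117090 had 1 each, in TET TKO 2. The TET TKO libraries were deeper, with reads for 27487 to 29098 genes, against 24827 to 25079 in ESCs and 22891 to 24384 in NPs. The share of all genes with this pattern was not counted, and the part of depth was not tested.

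**Figure D4:**
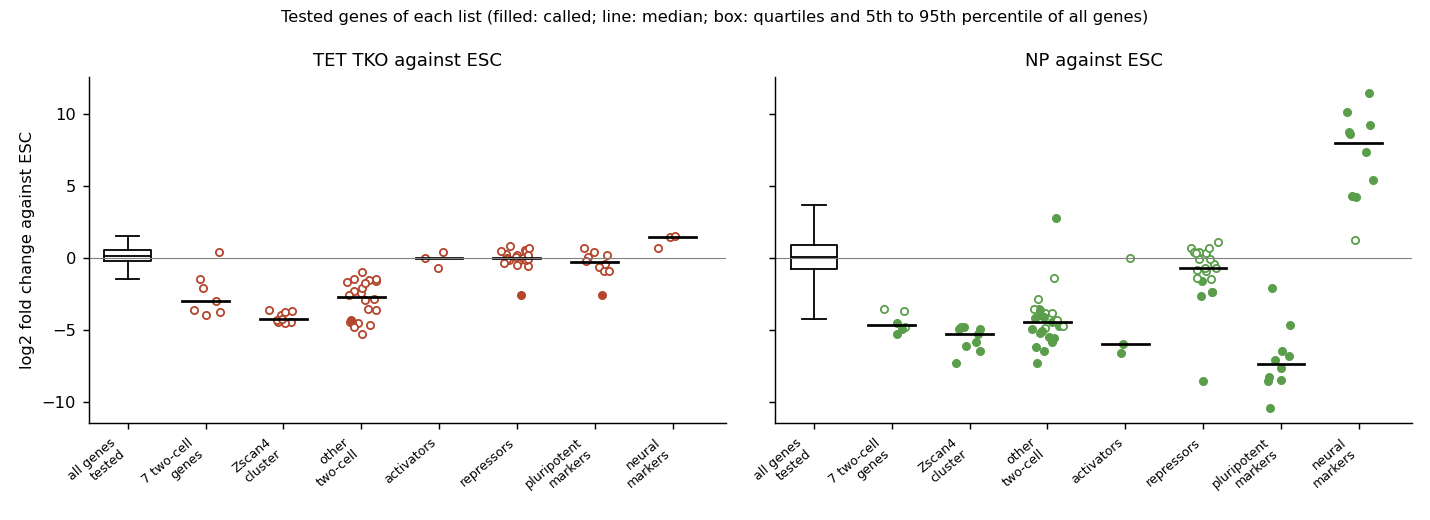
Each point is the log2 fold change of 1 tested gene against ESCs, filled where called, with a line at the list's median; the box shows quartiles and the 5th to 95th percentile of all tested genes. In TET TKO ESCs the lists of 2-cell genes have medians of -2.99, -4.24 and -2.74. The medians of the repressors and of the 3 tested activators, which leave out Duxf3, lie near 0 in TET TKO ESCs. In NPs these medians are -0.71 for the repressors and -6.01 for the activators, and the pluripotency markers fall with the 2-cell genes.

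Of the 3 tested activators, edgeR called 2 lower in NPs, against 9.98% of tested genes, and none in TET TKO ESCs, against 1.21%. The difference between these comparisons was not tested. Duxf3, the Dux gene of the annotation, was at 23, 17 and 18 reads in ESCs, 29, 17 and 7 in TET TKO ESCs and 0, 0 and 1 in NPs. It stayed under 1 RPKM and was not tested. Without the filter the log2 fold change of Duxf3 in TET TKO ESCs was -1.90 ± 0.53 (adjusted p = 0.011 in edgeR), not called. In RPKM each TET TKO library lay under every ESC library for Duxf3. The median over the activators was -0.02 for the 3 tested genes and -0.38 for 4 genes without the filter. Dppa2 was at 54.3 ± 12.3 RPKM in ESCs and 33.0 ± 12.6 in TET TKO ESCs (log2 fold change -0.73 ± 0.27, adjusted p = 0.072), and Dppa4 at 47.2 ± 4.501 and 46.7 ± 9.61 (-0.02 ± 0.16, adjusted p = 0.92). Nelfa, a subunit of the elongation factor NELF, was at 22.01 ± 0.927 and 28.6 ± 3.92 RPKM (0.37 ± 0.12, adjusted p = 0.045). Of these 3, 2 had an unadjusted p under 0.05 in TET TKO ESCs, as had 46.5% of tested genes in either direction. In NPs Dppa2 (-6.58 ± 0.52) and Dppa4 (-6.01 ± 0.44) were called lower and Nelfa was not (-0.05 ± 0.10).

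Among 22 repressors of the programme, edgeR called 1 lower and 0 higher in TET TKO ESCs, against 1.21% and 1.1% of tested genes. The lower gene was Zfp42, which encodes REX1 and is also a pluripotency marker, at 304 ± 5.63 RPKM in ESCs and 50.6 ± 11.02 in TET TKO ESCs (-2.60 ± 0.16, adjusted p = 8.6e-05). The median over the repressors was 0.00 on the log2 scale, with changes in both directions. Of the 22, 8 had an unadjusted p under 0.05, as had 46.5% of tested genes in either direction. In RPKM 3 lay below every ESC library, against 19.6% of tested genes, and 6 above, for which no share over all genes was counted. In NPs 5 of 21 were called lower, against 9.98% of tested genes. They were led by Zfp42 (-8.57 ± 0.47), the telomere and replication timing factor Rif1 (-2.65 ± 0.20), the RNA-binding protein Lin28a (-2.36 ± 0.15) and L3mbtl2 (-2.36 ± 0.10), a polycomb-related protein.

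Enzymes of DNA methylation were tested beside them. Of 5 genes, 0 were called in TET TKO ESCs, against 1.21% of tested genes called lower and 1.1% higher. Dnmt1 (-0.14 ± 0.08) and Uhrf1 (-0.17 ± 0.12), which keep methylation at replication, had the highest mean CPM over all 9 libraries. Dnmt3l, a cofactor of new methylation, was named here after its values were seen. It was the 1 gene of the 5 at an unadjusted p under 0.05, against 46.5% of tested genes in either direction. Its TET TKO libraries lay above every ESC library (0.62 ± 0.22, adjusted p = 0.061 in edgeR). In NPs Dnmt3l (-8.92 ± 0.40) and Dnmt3b (-3.23 ± 0.18), which act in new methylation, were called lower, against 9.98% of tested genes. Markers of other cells also differed: the summed level of 8 trophoblast markers was 41.5 to 46.0 RPKM in ESCs, 156 to 430 in TET TKO ESCs and 354 to 427 in NPs, with none of the 8 at 0 in any group. Of 6 tested in TET TKO ESCs 0 were called by edgeR, with 5 at an unadjusted p under 0.05, against 46.5% of tested genes. Krt18 and Krt8, epithelial keratins, led the sum in TET TKO ESCs (log2 fold changes of 3.63 ± 0.47 and 3.29 ± 0.49, not called). In NPs these keratins made up most of the sum at 277 and 112 RPKM. There 3 of 7 were called higher (Krt18, Krt8 and Gata3) and 3 lower, against 12.4% and 9.98% of tested genes. The 3 lower genes were Eomes (-3.56 ± 0.40), Tfap2c (-3.72 ± 0.32) and Ascl2 (-3.90 ± 0.32), transcription factors of trophoblast. The part of such cells in the level of the 2-cell genes was not tested.

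Within groups of the same cells, the 2-cell genes varied together and more than most genes. In ESC 3 the 7 genes were at 0.223 to 0.476 times the mean of ESC 1 and ESC 2, with a median of 0.351. All 7 were thus at 0.5 times or less, which held for 2.78% of 16197 genes with a mean of at least 10 reads in ESCs. The choice of ESC 3, and of TET TKO 3 and NP 2, was not set before the levels had been seen. Such shares therefore describe these libraries and are no test, and 3 of the 7 genes are copies that share sequence. Of the other 2-cell genes 27 of 31 were at 0.5 times or less, whereas the 10 pluripotency markers ranged from 0.923 to 1.125 times. Dppa2 was at 59.1, 63.5 and 40.4 RPKM in ESC 1, 2 and 3, and Duxf3 at 0.401, 0.289 and 0.271. ESC 1 and ESC 2 were the most alike pair of libraries, with a mean chi-square per gene of 2.37, above the sampling noise of 1.

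TET TKO 3 was low in the same way, with 6 of the 7 genes at 0.5 times the mean of TET TKO 1 and 2 or less. The range was 0.146 times for Zscan4d to 0.706 times for Tmem92, with a median of 0.304. Here 6.09% of 19472 genes were as low, 25 of 32 other 2-cell genes among them. The 10 pluripotency markers ranged from 0.570 to 2.095 times with a median of 1.36, none at 0.5 times or less, and Pou5f1 was at 0.617 times. Leaving out ESC 3 gave a larger difference between TET TKO ESCs and ESCs, with 20.9-fold for Zscan4c, 18.1-fold for Zscan4d, 16.0-fold for Zscan4f, 10.1-fold for Tmem92 and 5.20-fold for Zfp352. No gene of the 7 was called there either, and Tcstv1 had a log2 fold change of 0.05 ± 0.58. Leaving out TET TKO 3 gave a smaller difference, with 11.8-fold for Zscan4c, 7.17-fold for Tmem92 and 3.43-fold for Zfp352. It was also smaller without ESC 1, with log2 fold changes of -3.67 for Zscan4c and -3.46 for Zscan4d. In NPs, 3 genes were called without ESC 3 as with it.

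**Figure D5:**
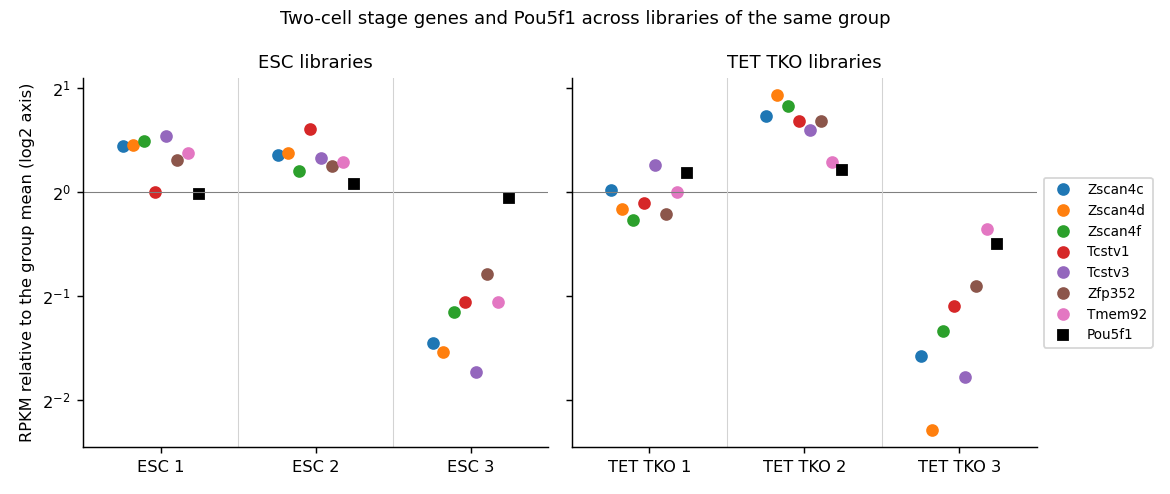
Points give the RPKM of each of the 7 genes and of Pou5f1 (black squares) in every ESC and TET TKO library, relative to the mean of its own group, on a log2 axis. The 7 genes are all lowest in ESC 3 among ESCs and in TET TKO 3 among TET TKO ESCs, where Tmem92 is the least reduced at 0.706 times the mean of the other libraries.

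The genes whose pattern was most like the mean of the 7, measured by Pearson's r of log2(CPM + 1) with that mean, included other genes of the 2-cell list, with 12 of the 31 that could be searched among the leading 50 over all libraries and 15 within groups. Over the 9 libraries, among 18207 genes with a mean of at least 10 reads, the highest were Gm12794 (r = 0.997), Usp17lc (0.996), Gm16026 (0.994), Gm5039 (0.994) and Kdm4dl (0.993). After subtracting group means, which leaves the variation between libraries of a group, they were Usp17lc (0.996), Gm12794 (0.989), Gm10800 (0.987), Zscan4e (0.983) and Gm5039 (0.981). With a pseudocount of 0.25 in place of 1, 4 of the 5 over all libraries and 2 of the 5 within groups stayed among the leading 5. Of the 7 genes themselves, Tcstv1 was least like their mean over all libraries (0.610) and more like it within groups (0.841), and Zscan4c had 0.993 and 0.985. Each of the 7 is part of that mean, so its own value is partly built in. The Zscan4 members of the mean also share sequence with the other Zscan4 copies of the list. Duxf3 had 0.942 and 0.536, and Pou5f1 0.686 and 0.503. These values are descriptions over 9 libraries that share group, depth and low counts, and carry no p.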

How the data were processed

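RNA-seq libraries of ESCs, NPs and TET TKO ESCs (3 each) were used; the methylation tables were not used here. Per the methods and the submitters' notes, the authors trimmed 50-base reads, aligned them to GRCm38 with STAR 2.6.1b and assigned them to exons of Ensembl 89 genes with featureCounts 1.6.2, without strand. The authors deposited raw counts per gene, and reads mapping to several places were not counted. Of 51912 genes, 51633 were given a symbol. Per-sample columns that matched no sample numbered 0.

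Counts were scaled by TMM and compared by edgeR 4.0.16 (R 4.3.3, quasi-likelihood F-test, Benjamini-Hochberg over all tested genes), on genes with at least 1 RPKM in 1 of the 6 libraries. Called means an adjusted p under 0.001 and at least 3-fold, the study's limits. DESeq2 1.42.0 was an alternative. edgeR was tested on simulated data. RPKM used TMM over all 9 libraries and the gene lengths of the files.

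The members and the gene lists were chosen with earlier results of these data known. Named genes are the 7, the Zscan4 cluster, Tet genes and activators, in each other list up to 4 called genes with the largest change (the 2 with the highest mean CPM where none was called) and the 5 most alike in pattern. Marker lists beyond those printed (primitive endoderm, fibroblast) are given in the closing section.

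Unique stretches were counted by exact matching of 50 and 100 bases on both strands of 66 primary sequences, and identities by global alignment with Biopython 1.88. Python 3.11.15 was used, with pandas 2.3.3 for tables, numpy 2.4.6 and scipy 1.17.1 for exact intervals, and matplotlib 3.10.9 for plots. Alternatives were library sizes alone, DESeq2, no filter, filterByExpr, 10 counts in every library of a group, looser limits, all 3 groups in the fit, a replicate block, copies summed, TET TKO counts thinned to ESC depth, and each library left out. Protein identity was planned but not used here, and exon identity was given in its place.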

Additional observations from a re-analysis of the deposited data

How the results depend on the processing

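No gene of the 7 changed sign under any alternative run in which it was tested. Without TET TKO 2, Tcstv1 did not pass the filter and has no value. In TET TKO ESCs, 0 of the 7 and 322 genes in all were called; DESeq2 called 5 and 910, no filter 4 and 1263, an adjusted p under 0.05 5 and 4953, and with 2-fold 5 and 2179. In NPs, 3 of the 7 and 3408 genes in all were called. DESeq2 called 6 of the 7 there, no filter 7 (5281 genes), an adjusted p under 0.05 6 (9734), and with 2-fold 6 (6218). Without the filter, 18 of the other 2-cell genes were called lower and 2 higher in TET TKO ESCs against 1 and 0, and 30 in NPs against 15, and 9 of the Zscan4 cluster in TET TKO ESCs against 0. The looser limits and the absent filter differ by construction, and for DESeq2 the cause was not tested. Each library left out in turn gave 50 to 329 genes and 0 of the 7 in TET TKO ESCs, with 50, 59 and 74 without ESC 1, 2 and 3, and 126 and 190 without TET TKO 1 and 2. In NPs it gave 2464 to 3413 genes and 1 to 5 of the 7, with 1 without ESC 1, ESC 2, NP 1 or NP 3 and 5 without NP 2. Replicate numbers are shared across groups, but the labels give them no shared source and the deviations of same-numbered libraries did not correlate in every pair (-0.089, -0.003 and -0.193 for NPs, -0.13, 0.461 and 0.272 for TET TKO ESCs), so the numbers were not taken as pairs. In TET TKO ESCs numbers 2 and 3 correlated best with themselves and number 1 did not. With the replicate number as a block, 674 genes and 4 of the 7 were called in TET TKO ESCs, and 3415 genes and 5 of the 7 in NPs. Library sizes alone, filterByExpr, 10 counts in every library of a group, and all 3 groups in the fit called 0 of the 7 in TET TKO ESCs and 3 to 4 in NPs. Thinning, run for TET TKO ESCs, called 0. With copies summed, 0 of 4 rows were called in TET TKO ESCs and 2 of 4 in NPs. At the depth of NPs, Tcstv1, Tcstv3 and Zfp352 had 0 to 6 reads a library, which limits their folds.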

Other observations

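Markers of further cell types were measured beside the 2-cell genes. The summed level of 8 primitive endoderm markers was 13.1 to 23.3 RPKM in ESCs, 21.9 to 39.0 in TET TKO ESCs and 85.7 to 95.2 in NPs. In NPs 4 of 7 tested were called higher, against 12.4% of tested genes, among them the transcription factors Foxa2 (log2 fold change 5.93 ± 0.42) and Gata6 (3.56 ± 0.33). In TET TKO ESCs 0 of 2 were called, with 1 at an unadjusted p under 0.05 in edgeR, against 46.5% of tested genes. The summed level of 8 fibroblast markers was 8.37 to 10.4 RPKM in ESCs, 5.05 to 8.50 in TET TKO ESCs and 7.70 to 49.0 in NPs. In NPs 2 of 7 were called higher, against 12.4% of tested genes. They were Col3a1, a collagen (6.98 ± 0.995), and Postn, a matrix protein (6.82 ± 0.79). The part of such cells in the level of the 2-cell genes was also not tested here.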
